A study of Mus musculus with 4 samples.

Results

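Cells leave the first gap phase of the cycle (G1) through a gate made of the D cyclins, the kinases CDK4 and CDK6, and the inhibitors of these kinases. Growth factors raise the D cyclins, which bind and activate CDK4 or CDK6, and the active kinase phosphorylates the retinoblastoma protein RB until it releases E2F, the factor that transcribes the genes of DNA synthesis. The INK4 inhibitors bind CDK4 and CDK6 themselves, whereas the CIP/KIP inhibitors block the CDK2 complexes that act next and can also help cyclin D and its kinase to assemble. In the mammary gland, cyclin D1 is known for its need in the growth of alveoli during pregnancy. The gate was described by 10 genes, named for these roles and not for their values: the D cyclins Ccnd1, Ccnd2 and Ccnd3, the kinases Cdk4 and Cdk6, the CIP/KIP inhibitors Cdkn1a, Cdkn1b and Cdkn1c, and the INK4 inhibitors Cdkn2a and Cdkn2b. All 10 were found among the 17630 genes listed.

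The study asked how sympathetic nerves act on the basal layer of the mouse mammary duct, the outer of its epithelial layers and a seat of stem cell activity. RNA was sequenced from 4 libraries of wild-type (WT) mammary basal cells, 1 for each group. Basal cells were sorted from untreated mice (sorted control) and from mice given 6-OHDA (sorted 6-OHDA), 6-hydroxydopamine, a neurotoxin taken up by sympathetic nerve endings. Basal cell colonies were grown in Matrigel, a basement membrane gel, without agonists (colony control) or with SP (colony SP), the β2 receptor agonist salbutamol together with the α1 receptor agonist phenylephrine.

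The sort used CD24 and CD29 after removal of cells with CD31, CD45 or TER119, and the colony medium of the study held epidermal growth factor, insulin, transferrin and selenium, so that both colony groups grew with mitogens that the sorted cells had not met in this form. The titles of the colony libraries carry the numbers 0 and 200 without a unit, and that the library numbered 0 is a colony library rests on this pairing and on the design text of the series, since its own label does not say so. The study used C57BL/6 and Actin-DsRed mice and gave 6-OHDA to mice 3 weeks old, to pregnant mice and to adults, and its methods do not tie strain, age or number of mice to these libraries. There were no replicates, so every difference below is one between 2 libraries, without a test or an error.

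Levels are given in FPKM, fragments per kilobase of transcript after division by library size, a unit per length in which genes of 1 library can be set side by side. The values summed to 508071 in the sorted control library, 517504 in the sorted 6-OHDA library, 577631 in the colony control library and 588202 in the colony SP library. Read counts were not analysed here. From the steps between the lowest values, 1 FPKM on 1 kilobase stood for roughly 16.2 to 17.7 fragments in the 4 libraries when fragments of 250 bases were assumed, an estimate that gives no interval for a single gene.

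The basal label was held against 12 basal markers. They summed to 10573 FPKM in the sorted control, 9593 in the sorted 6-OHDA, 6945 in the colony control and 14894 in the colony SP library, none of the 12 was at 0 in any library, and Krt14, a keratin of basal cells, was the most abundant in each. Keratins of the basal layer were thus high in all 4 libraries, while contractile genes of the myoepithelium were lower in the colonies and to different extents. Acta2, smooth muscle actin, stood at 1949 FPKM in the sorted control and 2575 in the sorted 6-OHDA library, and was still abundant in the control and SP colonies at 402 and 722 FPKM. Myh11, smooth muscle myosin, was listed at 467 FPKM in the sorted control and 449 in the sorted 6-OHDA library, against 11.2 and 21.4 in the control and SP colonies. The 12 luminal markers summed to 1466, 1332, 2029 and 1952.5 FPKM in the same order of libraries, with the keratin Krt8 the most abundant in each and none at 0.

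Markers of other cell types separated the sorted cells from the colonies. The 8 endothelial markers summed to 288 and 285 FPKM in the sorted control and 6-OHDA libraries and to 1.99 and 2.02 FPKM in the control and SP colonies. Pecam1, which encodes the CD31 used to remove endothelial cells in the sort, was the most abundant of them in every library, at 107 FPKM in the sorted control and 1.39 FPKM in the control colonies, and Tie1 was at 0 in the SP colonies. The 8 fibroblast markers summed to 182 FPKM in the sorted control, 375 in the sorted 6-OHDA, 40.8 in the colony control and 13.3 in the colony SP library. Dcn, a matrix proteoglycan, led in both sorted libraries, Col1a2 in the control colonies and Pdgfra in the SP colonies, where Fap was at 0.

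Of the 5 adipocyte markers, Fabp4 made up nearly the whole sum, at 210.2 FPKM in the sorted control, 374 in the sorted 6-OHDA, 34.4 in the colony control and 1.05 in the colony SP library. It is also expressed by endothelial cells, and Cidec was at 0 in the sorted 6-OHDA library, as were Plin1 and Cidec in the SP colonies. Leukocyte markers were low throughout, the 12 of them summing to 15.0, 12.9, 3.72 and 5.24 FPKM, with the macrophage gene Cd68 the most abundant in each library. Ptprc, which encodes the CD45 of the sort, was at 0 in both colony libraries, together with Cd3e, Cd3g, Adgre1 and Nkg7, and Cd3e was at 0 in the sorted 6-OHDA library as well. In the control colonies Cd79b and Itgam were also at 0. Of 5 red blood cell markers 4 were listed, summing to 1.51 and 9.31 FPKM in the sorted control and 6-OHDA libraries, led by the globin gene Hba-a1, with Hba-a2 at 0 in the former. In the control and SP colonies they summed to 0.51 and 0.28 FPKM, led by Alas2, with Hba-a1, Hba-a2 and Hbb-bs at 0.

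A group of 7 salivary gland genes stood at 15353 FPKM, or 2.97% of the library, in the sorted 6-OHDA cells, and at 1.70, 1.36 and 1.11 FPKM in the sorted control, colony control and colony SP libraries. Bpifa2 was the most abundant of them there, at 7277 FPKM, Amy1 led in the sorted control and control colonies and Lpo in the SP colonies. Smr3a, Dcpp1, BC037156 and Prb1 were at 0 in those 3 libraries, and Bpifa2 in the sorted control and SP colonies. The part of these other transcripts in the values of the gate genes was not tested. In bulk RNA, fewer cells of a type and less RNA per cell cannot be told apart, and this holds for each level and difference below.

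Ccnd1 (NCBI Gene 12443) encodes cyclin D1, the D cyclin most tied to growth factor signals in epithelium. It was listed at 40.3 FPKM in the sorted control, 30.9 in the sorted 6-OHDA, 171 in the colony control and 288 in the colony SP library. Both colony libraries lay above both sorted libraries, and within each pair the treated library moved away from its control, below it after the neurotoxin and above it with the agonists. Ccnd1 ranked 2037th among all genes in the sorted control and 289th in the SP colonies.

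Ccnd2 (NCBI Gene 12444) encodes cyclin D2, a partner of the same kinases. Its levels were 19.4, 22.7, 51.8 and 77.3 FPKM in the sorted control, sorted 6-OHDA, colony control and colony SP libraries. Here too the colonies were higher than the sorted cells and the SP library was the highest. Ccnd3 (NCBI Gene 12445) encodes cyclin D3 and stood at 21.8, 21.1, 37.6 and 40.3 FPKM in this order, the flattest of the D cyclins.

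The make-up of the D cyclins can be read within a library, where it does not depend on how libraries are scaled. Of the summed FPKM of the 3 D cyclins, Ccnd1 made up 49.5% in the sorted control, 41.4% in the sorted 6-OHDA, 65.7% in the colony control and 71.0% in the colony SP library. The share of Ccnd3 went the other way, at 26.7%, 28.2%, 14.4% and 9.95%. Ccnd2 took 23.8%, 30.4%, 19.9% and 19.1%. Cyclin D1 transcripts therefore led in all 4 libraries, by the least after 6-OHDA and by the most with SP.

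**Figure D1:**
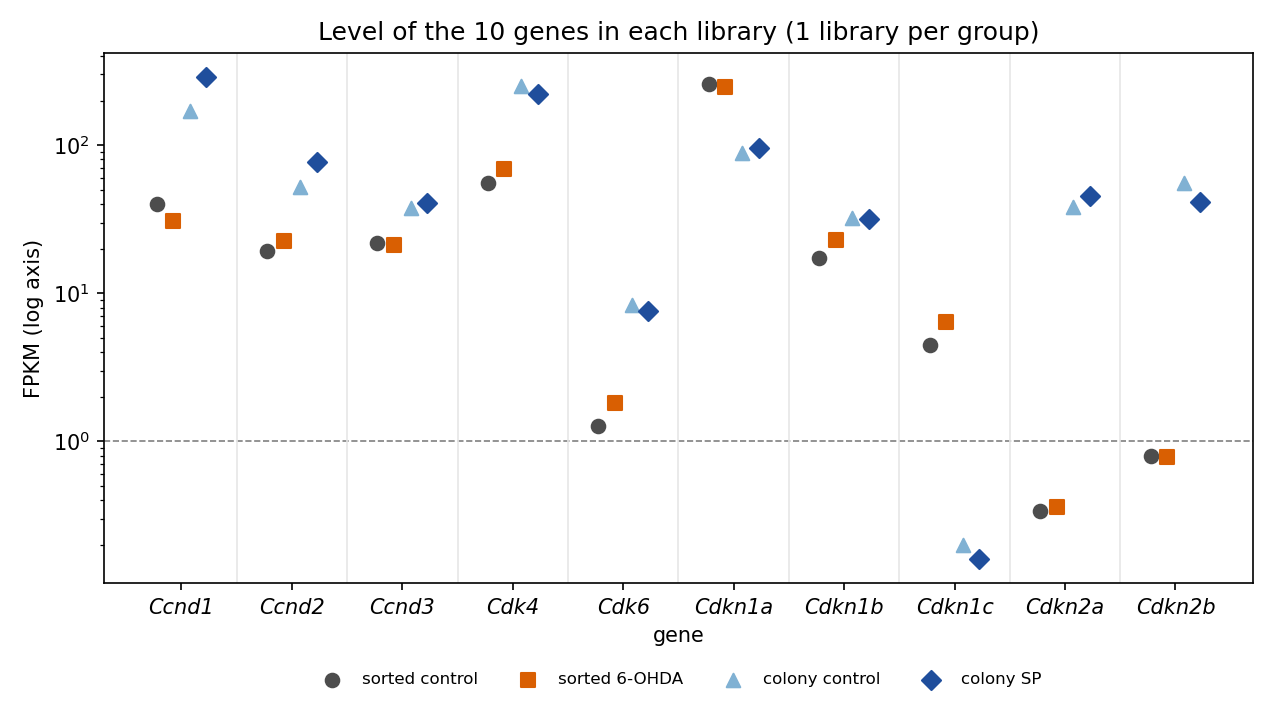
Level of each of the 10 genes in FPKM on a log axis, with 1 point for each library and a dashed line at 1 FPKM. Cdkn2a and Cdkn2b lie under 1 FPKM in both sorted libraries and between 38.0 and 55.2 FPKM in both colony libraries, while Cdkn1c lies at 4.44 and 6.34 FPKM in the sorted and at 0.20 and 0.16 FPKM in the colony libraries.

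Cdk4 (NCBI Gene 12567) encodes the kinase that pairs with D cyclins in most epithelia. It was listed at 55.6 FPKM in the sorted control, 68.5 in the sorted 6-OHDA, 251 in the colony control and 219.8 in the colony SP library. Cdk6 (NCBI Gene 12571), the kinase with the same partners that is prominent in blood cells, stood at 1.27, 1.80, 8.31 and 7.57 FPKM in this order. Both kinases thus had the same order of libraries, lowest in the sorted control and highest in the control colonies. Cdk4 was between 96.7% and 97.8% of the pair in each of the 4 libraries, while the share of Cdk6 went from 2.23% in the sorted control to 3.21% in the control colonies, since Cdk6 was 6.54 times and Cdk4 4.51 times as high there.

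Among the CIP/KIP inhibitors, Cdkn1a (NCBI Gene 12575) encodes p21, a target of p53 and of many stress and differentiation signals. Its levels were 259.8 FPKM in the sorted control, 245 in the sorted 6-OHDA, 88.0 in the colony control and 95.9 in the colony SP library. It was the most abundant of the 10 genes in both sorted libraries, and only Ccnd1 and Cdk4 stood above it in both colony libraries. Cdkn1b (NCBI Gene 12576) encodes p27, the inhibitor of resting cells that is mainly set by protein breakdown, and stood at 17.4, 22.9, 32.2 and 31.6 FPKM.

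Cdkn1c (NCBI Gene 12577) encodes p57, an imprinted inhibitor tied to resting stem cells and to growth control in the embryo. It was listed at 4.44 FPKM in the sorted control and 6.34 in the sorted 6-OHDA library, and at 0.20 and 0.16 FPKM in the control and SP colonies. The colony values stood for about 5.78 and 4.69 fragments by the estimate above, so their difference is not readable, while the gap to the sorted cells is large beside such steps. Within the CIP/KIP family, p21 transcripts made up 92.3%, 89.3%, 73.1% and 75.1% in the 4 libraries in order, and p27 transcripts 6.17%, 8.35%, 26.8% and 24.7%.

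On a log scale, the INK4 inhibitors Cdkn2a and Cdkn2b had the widest range of the 10 genes. Cdkn2a (NCBI Gene 12578) encodes both p16INK4a and, from another first exon and reading frame, p19ARF, which stabilises p53, and a value per gene does not separate them. It was listed at 0.34 FPKM in the sorted control, 0.36 in the sorted 6-OHDA, 38.0 in the colony control and 45.0 in the colony SP library. Cdkn2b (NCBI Gene 12579) encodes p15INK4b, a classical target of TGF-beta, and stood at 0.80, 0.78, 55.2 and 41.2 FPKM. Both genes were near the floor in sorted cells of either kind and among the upper ranks in colonies of either kind, and with SP the pair changed order.

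The 0.34 and 0.36 FPKM of Cdkn2a in sorted cells stood for about 3.70 and 3.78 fragments, and the 0.80 and 0.78 FPKM of Cdkn2b for about 15.4 and 14.4 fragments. Levels this low are known only roughly. With the related inhibitors Cdkn2c (p18) and Cdkn2d (p19INK4d) added, the INK4 family summed to 13.0 FPKM in the sorted control, 15.3 in the sorted 6-OHDA, 118 in the colony control and 112 in the colony SP library. Cdkn2d made up 68.9% of the family in the sorted control and 13.0% in the control colonies, whereas Cdkn2a and Cdkn2b together went from the smallest to the largest shares. In the control colonies Cdkn2b held 46.8% and Cdkn2a 32.3% of the family, and in the SP colonies 36.8% and 40.2%.

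**Figure D2:**
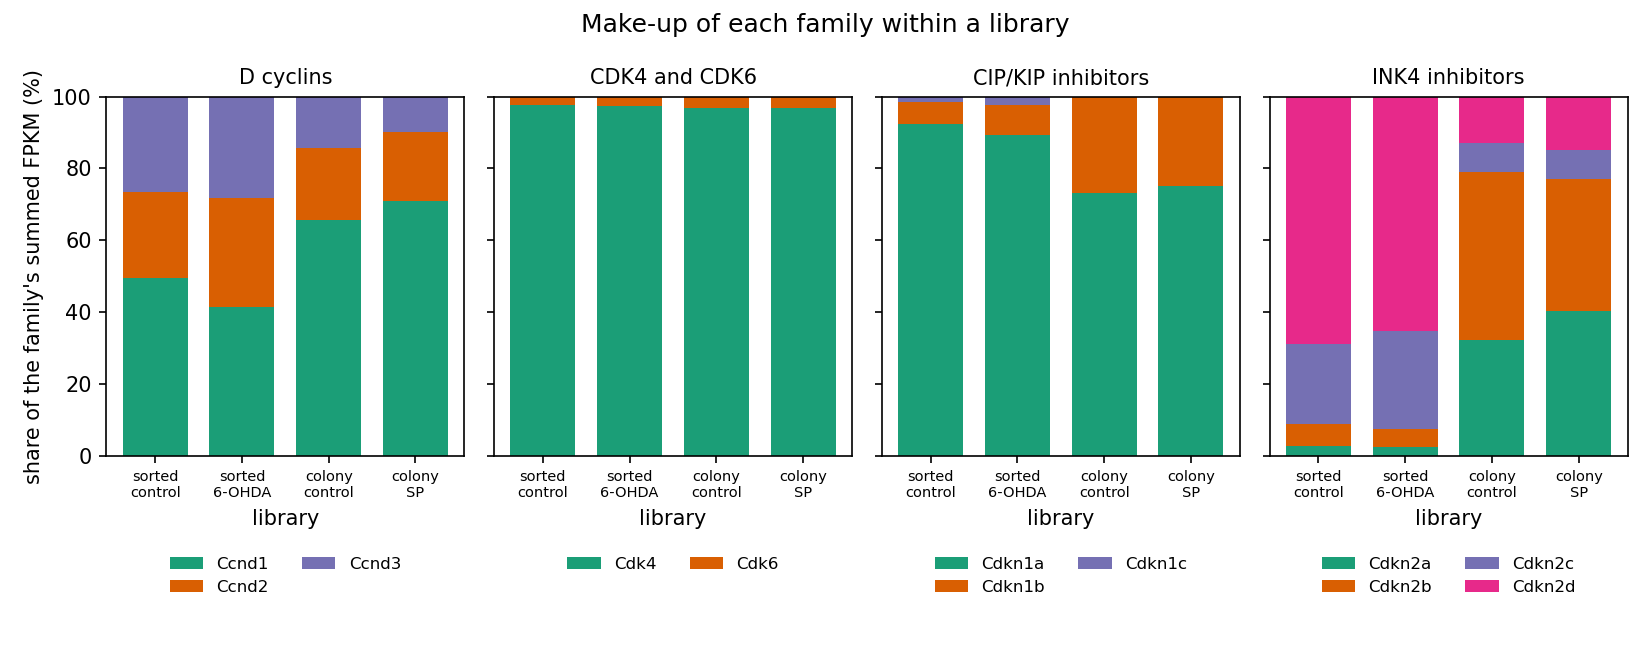
Share of each gene, in percent, of the summed FPKM of its family within each of the 4 libraries, as stacked bars from 0 to 100%. In the INK4 family Cdkn2d holds 68.9% of the sorted control library and 13.0% of the control colonies, and in the CIP/KIP family Cdkn1a falls from 92.3% to 73.1% between the same libraries.

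Sums over the families put activators beside inhibitors within a library. The D cyclins summed to 81.4 FPKM in the sorted control, 74.7 in the sorted 6-OHDA, 261 in the colony control and 405 in the colony SP library. The CIP/KIP genes summed to 282, 274, 120.5 and 128 FPKM in this order. Transcripts of the D cyclins were thus fewer than those of CIP/KIP inhibitors in the sorted cells and more in the colonies, with a ratio of 0.289 in the sorted control, 0.272 in the sorted 6-OHDA, 2.16 in the colony control and 3.18 in the colony SP library. When all 7 inhibitors were summed, INK4 genes included, they stood at 295, 289.6, 238 and 239.6 FPKM. The total was thus lower in the colonies, though by less than the CIP/KIP sum, and its make-up differed as well. The ratio of CDK4 and CDK6 to the INK4 genes was 4.37 and 4.60 in the sorted control and 6-OHDA libraries and 2.20 and 2.03 in the control and SP colonies. These are ratios of transcripts and not of proteins.

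For the fold changes, FPKM plus 1 was put on the log2 scale, which understates the change of low genes, and genes with a mean of at least 1 FPKM over the 2 libraries were compared. A gene was counted as higher or lower when this value exceeded 0.3 in size, the fold that the study used for its volcano plot. The comparison of 6-OHDA with control sorted cells and that of the control colonies with control sorted cells share the sorted control library, and the comparison of SP with control colonies shares the colony control library with the latter. Their values for a gene are therefore not independent of each other.

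In sorted cells, the question was whether loss of sympathetic nerves moved the gate. Cyclin D1 was lower after 6-OHDA, and p27, p57 and, by the narrowest margin, CDK6 were higher, all by small folds. Of the 10 genes 8 could be compared, since Cdkn2a and Cdkn2b were under 1 FPKM in both libraries. The log2 fold change of Ccnd1 was -0.37, and 674 of the 11749 genes compared had a lower one. That of Cdkn1c was 0.43 and that of Cdkn1b 0.38, with 837 and 1152 genes above them.

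Cdk6 at 0.3027 and Cdk4 at 0.2959 fell on either side of the threshold, which separates nothing between them. Under the other scalings Cdk6 lay between 0.20 and 0.30, and over all alternatives between 0.12 and 0.47. Ccnd2 stood at 0.21, Ccnd3 at -0.04 and Cdkn1a at -0.08, all within the threshold. In all, 3 of the 8 were higher, where 15.8% of all genes compared were higher, and 1 of the 8 was lower, where 8.35% were. With so few genes, these counts say little beyond the values themselves. The median of the 8 was 0.25, against 0.06 for all genes compared.

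In colonies, the question was whether adrenergic agonists moved the gate. Cyclins D1 and D2 were higher with SP, p15INK4b was lower, and the other genes differed by less than the threshold. Ccnd1 had a log2 fold change of 0.75, a ratio of 1.68, and 411 of 11849 genes had a higher one. Ccnd2 followed at 0.57, with 632 genes above it. Among the D cyclins only Ccnd3, at 0.10, was within the threshold in this comparison, and this held under each scaling tried.

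Cdkn2b had a log2 fold change of -0.41 and Cdkn2a one of 0.24, so the neighbouring INK4 genes differed in opposite directions, under each scaling too. Scaling by the median ratio of the genes compared brought Cdkn2a to 0.31, just past the threshold. Cdk4 at -0.19, Cdk6 at -0.12 and Cdkn1a at 0.12 stayed within it. Cdkn1b at -0.03 changed sign between scalings, from -0.06 to 0.04. Of the 9 genes compared, without Cdkn1c, which was under 1 FPKM in both colony libraries, 2 were higher, where 11.7% of all genes compared were higher, and 1 was lower, where 19.8% were. The median of the 9 was 0.10, against -0.07 for all genes compared.

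Between the controls, the question was how the gate of cultured colonies differs from that of cells taken straight from the gland. D cyclins, kinases and INK4 inhibitors were higher in the colonies, and p21 and p57 were lower. All 10 genes had a mean of at least 1 FPKM, but Cdkn2a, Cdkn2b and Cdkn1c reached it only through the library in which they were high and so had to differ. Of the 12244 genes compared, 55.7% were higher and 26.6% lower in the colonies, and of the 10 genes 8 were higher and 2 lower, so the threshold of 0.3 sets few genes apart here. Past a log2 fold change of 1, 30.7% of all genes were higher and 13.2% lower, against 6 and 2 of the 10.

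In this comparison the median of all genes was 0.45, and scaling by the median ratio moved it by -0.45, so each value is given with its distance from that median. Cdk4 stood at 2.15, or 1.70 above the median, and 626 genes had a higher value. Ccnd1 followed at 2.06, or 1.61 above it, and Cdk6 at 2.04, or 1.58 above it. These 3 genes lay near the upper edge of the range of all genes, whose 95th percentile was 2.16.

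Ccnd2 at 1.37 stood 0.92 above the median of all genes. Cdkn1b at 0.86 and Ccnd3 at 0.76 were 0.40 and 0.31 above it, and Ccnd3 fell to 0.27 with median ratio scaling. The rise of p27 and cyclin D3 transcripts was thus close to that of the typical gene. Cdkn1a went the other way, with a log2 fold change of -1.55, or a distance of -2.00 from the median. Its level was 2.95 times lower in colonies, and 996 genes had a lower value.

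Cdkn1c had a log2 fold change of -2.18, or a distance of -2.63 from the median of all genes. Cdkn2b and Cdkn2a stood at 4.96 and 4.86, or 4.51 and 4.41 above that median, with only 18 and 24 genes of the 12244 above them. Without a pseudocount their levels in the control colonies were 69.0 and 112 times those in the sorted control, ratios that rest on the few fragments of the sorted library. No other gene of the 10 came near these folds.

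**Figure D3:**
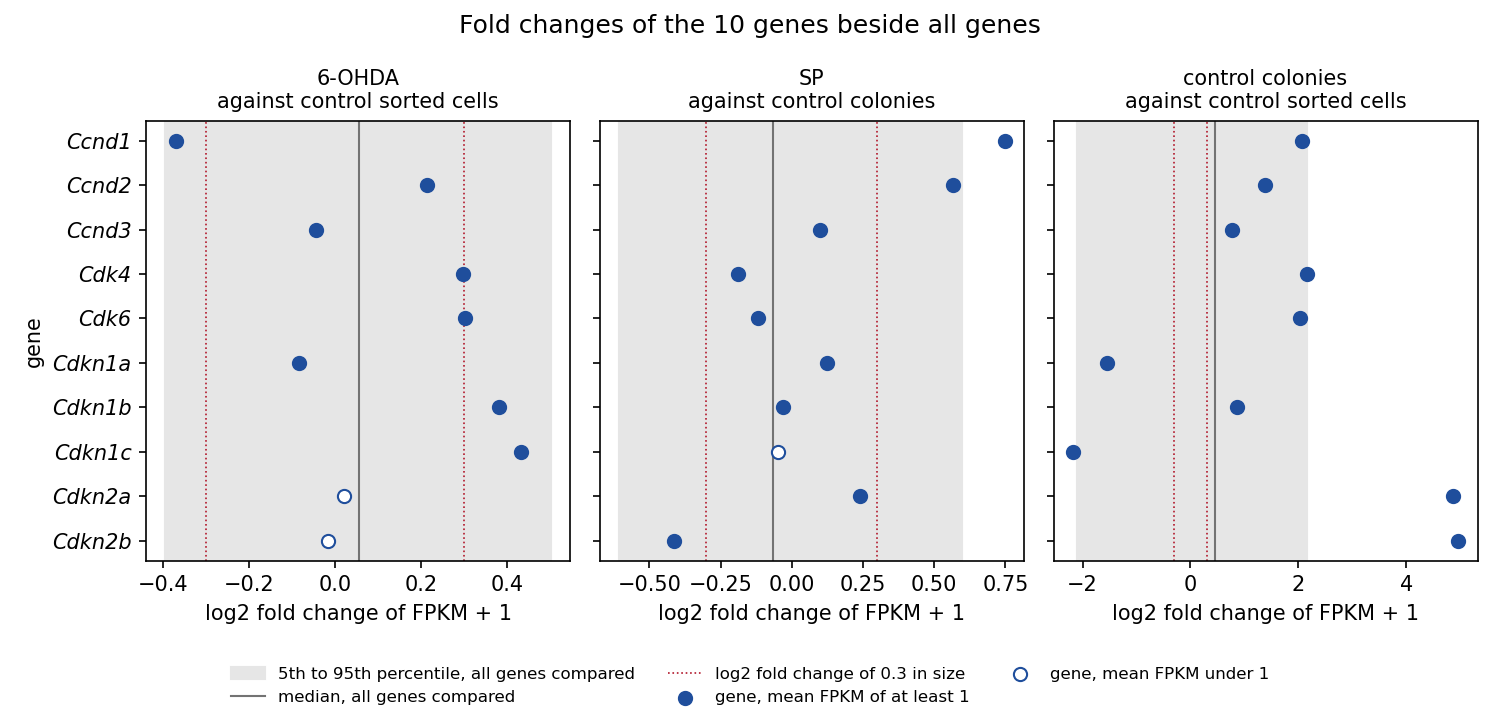
Log2 fold change of FPKM + 1 of each of the 10 genes in 3 comparisons, each panel with its own axis, beside the 5th to 95th percentile of all genes compared (grey), their median (line) and the threshold of 0.3 (dotted). Cdkn2b and Cdkn2a reach 4.96 and 4.86 between the controls, where the 95th percentile of all genes is 2.16, and open points mark genes with a mean under 1 FPKM.

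Set side by side, Ccnd1 had log2 fold changes of -0.37 after 6-OHDA, 0.75 with SP and 2.06 between the controls. Ccnd2 had 0.21, 0.57 and 1.37 in the same order. Cdk4 had 0.30, -0.19 and 2.15. No gene of the 10 was past the threshold of 0.3 in all 3 comparisons except Ccnd1, whose direction was not the same in them.

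The cell type markers moved in the same comparisons. Of the 12 basal markers, 1 was higher and 2 lower after 6-OHDA, 7 were higher and 1 lower with SP, and 1 was higher and 8 lower between the controls. Their median with SP was 0.82, so basal keratin transcripts and cyclin D1 were higher in the same library. After 6-OHDA the median of the basal markers was 0.09, and between the controls it was -0.75. Luminal markers had 1 of 11 higher and 3 lower after 6-OHDA, 1 of 12 higher and 3 lower with SP, and 10 of 12 higher and 1 lower between the controls, with medians of -0.12, -0.12 and 0.86.

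Fibroblast markers had 5 of 8 higher and 0 lower after 6-OHDA, with a median of 1.05, 0 of 6 higher and 5 lower with SP, with a median of -0.89, and 1 of 7 higher and 5 lower between the controls, with a median of -1.57. Endothelial markers had 2 of 8 higher after 6-OHDA, with a median of 0.17, and the 1 compared with SP was within the threshold. Between the controls all 8 were lower, but all except Pecam1 were under 1 FPKM in the colonies and passed the filter only through the sorted control. A change in the cells of a library and a change within basal cells would both appear in such values. Leukocyte markers had 1 of 4 lower after 6-OHDA, with a median of -0.18, and 0 of 1 past the threshold with SP. Between the controls 3 were compared and lower, of which only Cd68 was over 1 FPKM in the colonies. Fabp4, the only adipocyte marker compared, stood at 0.83, -4.11 and -2.58.

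After 6-OHDA 2 red blood cell markers and 7 salivary gland genes could be compared, and all but Hba-a1 and Amy1 reached a mean of 1 FPKM only through the 6-OHDA library and so had to be higher. With SP none of either kind was compared. Between the controls 1 salivary gland gene was compared and was within the threshold, at -0.16.

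Lists of genes that act downstream and upstream of the gate were counted in the same way. Shares of all genes that were higher and lower, as given above, were 15.8% and 8.35% after 6-OHDA, 11.7% and 19.8% with SP, and 55.7% and 26.6% between the controls. A list count between the controls therefore says little where most of its genes are higher, as most of all genes were. A gene under 1 FPKM in 1 of the 2 libraries passes the filter only through the other, so its direction is set by the filter. Besides those named at their list, this held between the controls for E2f2, Mycn, Tbx2, Foxo6, Igf2, Grb10, Slc22a18, Kcnq1 and Cdc6 and for the markers Elf5 and Lum, and with SP for Foxo6, Kcnq1, Col3a1 and Pdgfrb. After 6-OHDA it held for the markers Fap and Coro1a. Of the INK4 genes Cdkn2c and Cdkn2d, 1 was higher after 6-OHDA, 0 with SP and 2 between the controls, with medians of 0.27, 0.04 and 1.06, against 0.06, -0.07 and 0.45 for all genes.

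Downstream of the gate, the pocket proteins are RB and its relatives p107 and p130. Rb1 was listed at 6.20, 8.14, 16.8 and 15.2 FPKM in the sorted control, sorted 6-OHDA, colony control and colony SP libraries, and Rbl1, the gene of p107 and itself a target of E2F, at 1.39, 2.24, 9.99 and 11.7 FPKM. Of the 3 pocket protein genes, 2 were higher and 0 lower after 6-OHDA, 0 were higher and 1 lower with SP, and 3 were higher between the controls. Their medians were 0.34, -0.14 and 1.31, against 0.06, -0.07 and 0.45 for all genes, and the medians of all further lists are given in this order of comparisons. The lower one with SP was Rbl2, the gene of p130, at -0.38. RB transcripts thus stood higher in the colonies together with the kinases that act on RB.

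Of 10 E2F and DP factors, 9 were compared after 6-OHDA, with 4 higher and 0 lower, and 10 with SP, with 4 higher and 1 lower. Between the controls 6 were higher and 1 lower, and the medians were 0.23, 0.12 and 0.50. E2f8, a repressor induced by the activator E2Fs, stood at 2.14, 3.44, 3.75 and 8.72 FPKM in the 4 libraries. E2f2, an activator, was listed at 0.18 FPKM in the sorted control and 4.46 FPKM in the control colonies.

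The E2F targets of S phase, 16 in the list, are the direct output of the gate. After 6-OHDA 7 of 15 compared were higher and 0 lower, with a median log2 fold change of 0.25. With SP 10 of 16 were higher and 0 lower, with a median of 0.43, and between the controls 13 were higher and 3 lower, with a median of 1.20. Mcm5, part of the replicative helicase, went from 3.08 FPKM in the sorted control to 6.68 in the sorted 6-OHDA and 23.8 in the control colonies. Rrm2, which makes nucleotides for DNA synthesis, went from 23.9 FPKM in the control colonies to 46.4 with SP.

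Mitosis genes report on cells that have passed the gate. The 10 listed summed to 20.2 FPKM in the sorted control, 48.5 in the sorted 6-OHDA, 195 in the colony control and 347 in the colony SP library. After 6-OHDA 8 of 9 were higher and 0 lower, with a median of 1.09, with SP 10 of 10 were higher, with a median of 0.78, and between the controls 10 of 10 were higher, with a median of 2.53. Direction was set by the filter for Cdk1 and Aurkb after 6-OHDA, and for these and Bub1 between the controls. In the 6-OHDA comparison, cyclin D1 transcripts were lower while these transcripts were higher, and in the SP comparison both were higher. Mki67, the gene of the Ki67 protein, stood at 2.31 FPKM in the sorted control and 6.70 in the sorted 6-OHDA library. By flow cytometry, the study instead reports fewer basal cells positive for this protein in mice given the neurotoxin. The sorted 6-OHDA library also held salivary gland transcripts and more of the fibroblast markers. Which cells its mitosis transcripts came from was not tested. Top2a, a topoisomerase of dividing cells, stood at 2.59 FPKM in the sorted control and 9.68 in the sorted 6-OHDA library.

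Cyclin E, cyclin A and CDK2 act after the gate, and Cdc25a, a phosphatase that activates CDK2, was listed with them. Of these 5 genes, 2 were higher after 6-OHDA, 3 with SP and 3 between the controls, and none was lower, with medians of 0.18, 0.65 and 0.36. Ccne1, which encodes cyclin E1, was listed at 7.97 FPKM in the control colonies and 13.1 FPKM in the SP colonies, a log2 fold change of 0.65. Between the controls it was within the threshold, at -0.11, and so was Cdk2 at 0.10, in contrast to Cdk4. Ccna2, the gene of cyclin A2, stood at 1.48, 4.52, 14.9 and 25.3 FPKM in the 4 libraries.

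The kinase that activates CDKs consists of Cdk7, Ccnh and Mnat1. Mnat1 was higher after 6-OHDA, at 0.38, and the other members were within the threshold, as were all 3 with SP. Between the controls all 3 were higher, Mnat1 by 2.07, Ccnh by 1.68 and Cdk7 by 0.35. The last of these lay below the median of all genes, and the medians of the 3 were 0.22, -0.08 and 1.68.

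Breakdown sets the amounts of cyclin D and p27 proteins, and 12 genes of protein turnover were listed, not all of them particular to these proteins. After 6-OHDA 2 of 12 were higher and 0 lower, and with SP 1 of 11 was higher and 1 lower. Skp2, the ubiquitin ligase subunit that recognises p27, was the higher one with SP, at 0.35, and Fbxw7 the lower one, at -0.42. Between the controls 8 of 12 were higher and 1 lower, the latter being Usp2, a deubiquitinase that stabilises cyclin D1, at 17.2 FPKM in the sorted control and 0.56 FPKM in the control colonies, so that its direction was set by the filter. The medians were 0.08, -0.11 and 0.63.

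Upstream of cyclin D transcription, 21 factors, receptors and ligands were listed. Fosl1, an AP-1 factor, stood at 240.3 FPKM in the sorted control, 195.5 in the sorted 6-OHDA, 1.27 in the colony control and 5.14 in the colony SP library. Myc, which encodes the c-Myc factor, stood at 204, 181, 13.3 and 21.6 FPKM. Cyclin D1 and Cdk4 transcripts were thus highest in the colonies, where Fosl1 and Myc were lowest. Ctnnb1 of the same list had the same order of libraries as Ccnd1, at 252, 236, 373 and 467.5 FPKM. Whether any of these factors acts on Ccnd1 or Cdk4 here was not tested. Within the colonies, Ccnd1, Myc and Fosl1 were all higher with SP, the last by 1.44 and Myc by 0.66.

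The growth factor genes Nrg1 and Areg, ligands of the ErbB receptors, went from 4.60 to 15.0 FPKM and from 16.9 to 46.2 FPKM with SP. After 6-OHDA 2 of the 21 were higher and 0 lower, namely Nrg1 at 0.48 and Tnfrsf11a, the receptor of RANKL, at 0.33. With SP 5 of 19 were higher and 5 lower, and between the controls 5 of 20 were higher and 11 lower. Their medians were 0.03, -0.03 and -0.90.

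p53 acts on p21, and its target genes were set beside Cdkn1a. Trp53 itself stood at 80.4, 71.6, 92.8 and 78.7 FPKM in the 4 libraries in order. Of the 19 genes of this list, 4 were higher and 0 lower after 6-OHDA, and 1 was higher and 5 lower with SP. The medians were 0.14, -0.16 and 0.76. Between the controls 11 were higher and 4 lower, near the 55.7% and 26.6% of all genes, so these counts say little about the list. Ccng1, the cyclin G1 gene, had a log2 fold change of 2.46 there and Gadd45a, a stress gene, one of -2.31, so p21 fell with some p53 targets and not with others.

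Repressors of the Cdkn2a locus include the Polycomb genes and the factors Id1, Tbx2 and Tbx3. Bmi1, a Polycomb member known for silencing this locus, was listed at 6.71, 9.05, 32.0 and 24.3 FPKM, and was thus higher in the colonies, as Cdkn2a was. Cbx7 was lower between the controls, at -1.35. After 6-OHDA 2 of 11 were higher and 1 lower, with SP 0 of 10 were higher and 3 lower, and between the controls 4 of 11 were higher and 6 lower, with medians of 0.06, -0.14 and -0.32.

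TGF-beta signals induce Cdkn2b in many epithelia. Of 11 genes of this pathway, 0 were higher and 2 lower after 6-OHDA, 1 was higher and 3 lower with SP, and 2 were higher and 6 lower between the controls, with medians of 0.01, -0.11 and -0.90. Smad7, a feedback inhibitor that the pathway induces, was listed at 66.8 FPKM in the sorted control and 9.05 FPKM in the control colonies. Cdkn2b was higher in the latter. The 2 genes of the list that were higher there were Tgfb3, at 1.32, and Tgfbr2, at 0.66, in the direction of Cdkn2b. Tgfb3 was also lower with SP, at -0.63, as Cdkn2b was. Whether TGF-beta signals have a part in the level of Cdkn2b was not tested. Of the 4 FOXO factors, which can raise p27 transcription, none of 3 was past the threshold after 6-OHDA, 1 of 4 was lower with SP, and 2 were higher and 1 lower between the controls, with medians of -0.11, -0.26 and 0.41.

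Cdkn1c is imprinted, and 13 of 15 other imprinted growth genes were listed. After 6-OHDA 4 of 10 were higher and 0 lower, with Mest at 0.91, Grb10 at 0.75 and Igf2 at 0.72, in the direction of Cdkn1c. Between the controls 4 of 11 were higher and 6 lower, and the medians were 0.13, -0.20 and -0.39. Igf2, a growth factor expressed from the paternal copy, went from 5.54 FPKM in the sorted control to 0.24 FPKM in the control colonies, in the direction of Cdkn1c, and Mest from 4.82 to 33.8 FPKM, in the other. With SP 0 of 9 were higher and 3 lower, and Mest stood at 7.03 FPKM.

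Genes with the most similar course over the 4 libraries were sought for the 8 members whose log2 of FPKM plus 1 spanned at least 1, among 12282 genes, by the largest difference after each gene was centred on its own mean. Mal2 came nearest to Ccnd1, with a largest difference of 0.08, and Tlcd2 followed with 0.16. Only 16 genes lay within 0.3 of Ccnd1, against 754 for Cdk4 and 903 for Cdk6. Ccnd1 also had a wider log2 span over the 4 libraries, at 3.18, against 2.15 for Cdk4 and 2.04 for Cdk6. Members with the widest spans had the fewest genes within 0.3, so these counts do not separate a rarer course from a wider one.

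For Ccnd2 the nearest genes were Sergef and Itgb4, the latter an integrin of hemidesmosomes, at 47.3, 49.5, 113 and 176 FPKM. For Cdk4 they were Lyrm4 and Hadh, for Cdk6 Ap1g2 and Elp2, for Cdkn1a Ube2j1 and Hic1, and for Cdkn1c Hdc and Ugcg. Cdkn2a lay nearest to Ly6d, a surface protein, at 33.6, 29.0, 976 and 1059 FPKM, with Gm12816 next, and 2 genes were within 0.3 of it. Hpgd, a prostaglandin-degrading enzyme, was the only gene within 0.3 of Cdkn2b, at 0.39, 0.44, 32.9 and 25.9 FPKM, and Ly6d was next at 0.37. With 4 libraries, such likeness is a description of these values.

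Cdkn2a and Cdkn2b, which shared their course between sorted cells and colonies, are also neighbours. In the RefSeq annotation of GRCm38.p6, the build that the submitters name as mm10, Cdkn2a lies at chr4:89274473-89294619 and Cdkn2b at chr4:89306289-89311032, with 11669 bases between them. Mtap, the nearest listed gene on the side of Cdkn2a, 93382 bases away, stood at 16.7, 17.8, 36.9 and 39.9 FPKM, and was higher in the colonies by a far smaller fold than the pair. Dmrta1, on the side of Cdkn2b and 377165 bases away, was at 0.06 FPKM or less in each library, too low for a change to be read.

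Of the 10 genes 7 share exon bases with a gene on the other strand in GENCODE vM21, and whether the authors' quantification used strand is not given in the sources used here. Cdk4 shares 641 bases with Tspan31, which stood at 43.7 FPKM in the sorted control and 77.0 FPKM in the control colonies. Ccnd1 shares 1100 bases with LTO1, at 2.73, 3.46, 9.97 and 17.5 FPKM, a gene that was also higher in the colonies but at a far lower level, and Ccnd3 shares 361 with Bysl, at 17.2 and 5.97 FPKM in the sorted and colony controls. The partners of Ccnd2, Cdk6, Cdkn1a and Cdkn1c are not annotated as coding and have no value in the files, and they share 368 and 372 bases with Ccnd2, 368 with Cdk6, 273 with Cdkn1a and 625 with Cdkn1c. Reads of such partners cannot be told apart without strand. Ccnd3 also has a processed pseudogene, Ccnd3-ps, and reads that fit both cannot be told apart here.

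The RefSeq promoter table of GRCm38.p6 holds 250 bases before and 50 after each start and matched 7 of the 10 genes, with entries for Ccnd3, Cdk4, Cdk6, Cdkn1a, Cdkn1b, Cdkn2a and Cdkn2b. Ccnd1, Ccnd2 and Cdkn1c have none. Both strands were searched for the E-box CACGTG bound by Myc and its relatives, the cAMP response element TGACGTCA, the GC box GGGCGG, the AP-1 site TGANTCA, the E2F sites TTTCGCGC and TTTGGCGC, and the p53 decamer. These motifs do not contain each other, and a match describes letters and not binding.

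The promoter of Cdk4 holds 4 E-boxes, where 7.15% of all 32851 windows hold at least 1 and 0.0244% hold 4. It is shown because Cdk4 and Myc moved in opposite directions between the controls. The stretch is chr10:127063345-127063534 on the plus strand, upstream of the start, with the E-boxes in capitals.
Cdk4: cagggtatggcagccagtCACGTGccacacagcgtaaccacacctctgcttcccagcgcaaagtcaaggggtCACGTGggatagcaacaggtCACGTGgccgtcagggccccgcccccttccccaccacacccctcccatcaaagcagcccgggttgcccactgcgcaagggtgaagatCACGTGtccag

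The INK4 neighbours are shown because they rose together in colonies and differed in direction with SP. Cdkn2b holds 1 cAMP response element, as do 1.79% of all windows, and β2 receptor agonists are known to raise cAMP. Cdkn2b was the lower of the pair with SP, at -0.41, and whether this element has a part in that difference was not tested. At the upstream of its 2 starts, the one from which p19ARF is read, Cdkn2a holds 3 GC boxes, 2 of them before the start, where 10.7% of all windows hold 3 or more, and neither of its windows holds the cAMP response element. Both stretches lie upstream of a start on the minus strand, Cdkn2b at chr4:89311033-89311152 with the cAMP response element in capitals and Cdkn2a at chr4:89294620-89294739 with the GC boxes in capitals.
Cdkn2b: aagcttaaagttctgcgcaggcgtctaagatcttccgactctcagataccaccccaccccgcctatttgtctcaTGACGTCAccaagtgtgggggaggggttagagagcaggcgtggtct
Cdkn2a: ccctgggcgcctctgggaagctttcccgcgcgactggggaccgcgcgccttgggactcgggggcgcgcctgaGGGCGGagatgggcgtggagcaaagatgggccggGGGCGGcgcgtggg

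Cdkn1a was the most abundant gate gene of the sorted cells, and at 1 of its 2 starts it holds 2 matches to the p53 decamer, where 8.36% of all windows hold at least 1 and 0.359% hold 2 or more. The stretch lies at chr17:29090899-29090978 on the plus strand, upstream of that start, with the decamers in capitals. No window of the 7 genes held the exact letters of an E2F site, found in 0.323% and 0.514% of all windows, or of the AP-1 site, found in 7.81%. Beside Cdk4, only Cdk6 held an E-box, and it held 1.
Cdkn1a: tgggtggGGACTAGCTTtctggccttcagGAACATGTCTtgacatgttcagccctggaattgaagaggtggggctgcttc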

How the data were processed

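The authors deposited FPKM values with 2 decimals for 17630 genes in each of 4 libraries, made from RNA extracted with RNAiso plus. The submitters' processing notes name Bowtie2, RSEM 1.3.1, DESeq2 1.4.5 and the build mm10, without saying which step each served, and the annotation is not given in the sources used here. NCBI Gene numbers identify the genes. RefSeq symbols of GRCm38.p6 were found for 17512 of them, and the 118 without a symbol were kept as background.

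FPKM divides by all fragments of a library, so very abundant transcripts in 1 library lower all its other values. Fold changes were log2((FPKM + 1)/(FPKM + 1)) over genes whose FPKM averaged 1 or more in the 2 libraries, called above 0.3 in size. A count test does not apply to FPKM, and with 1 library for each group no p-value was computed. The members and lists were chosen with earlier results of these data known. Besides the 10 members, the text names at most 3 genes of each list in each comparison, those with the largest change, the most abundant marker and markers at 0, the 2 genes of nearest course, and, chosen after their values were seen, a few further list genes, Trp53, Cdk2, Bmi1 and Rb1 among them. Neighbours and overlapping genes were named for their position.

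The step of 1 fragment was sought in low values of genes with a single GENCODE vM21 transcript. Fold changes were tested on simulated data, which gives no error for any difference reported here. The 9 alternatives covered pseudocount, filter, scaling and threshold. Python 3.11.15, numpy 2.4.6, pandas 2.3.3 and matplotlib 3.10.9 were used.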

Additional observations from a re-analysis of the deposited data

How the results depend on the processing

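None of the values of the 10 genes past the threshold changed direction under the 9 alternatives. Of 240 values of a gene under an alternative, 223 kept their side of the threshold, 15 dropped under it and 2 rose past it. With a pseudocount of 5, genes higher and lower after 6-OHDA numbered 804 and 539, and 1276 genes were lower with SP. Of the 10 genes 1 was then higher after 6-OHDA, since Cdkn1c and Cdk6 fell within the threshold. With a mean FPKM of at least 5, genes higher and lower after 6-OHDA numbered 1066 and 639, and between the controls 1 of the 10 genes was lower, since Cdkn1c was no longer compared. At a threshold of 1, genes higher and lower numbered 123 and 106 after 6-OHDA, 237 and 158 with SP, and 3761 and 1619 between the controls, and 0 of the 10 genes were past it in either direction after 6-OHDA or with SP. Fewer genes tested or a higher threshold lower these counts by construction. Of genes past 0.3, those higher made up 65.4% after 6-OHDA, 37.1% with SP and 67.7% between the controls. With scaling by the median ratio they made up 50.5%, 49.9% and 50.2%, and with quantile normalization 47.4%, 47.0% and 55.1%. Scaling by the median ratio sets the median of all genes near 0, so its even split follows from the scaling itself. The cause of the uneven split in the main values was not tested. Between the controls, rescaling to the same sum moved the median of all genes by -0.16 and quantile normalization by -0.33. Depth limits Cdkn2a and Cdkn2b in sorted cells and Cdkn1c in colonies, whose folds between the controls ran from 3.01 to 6.44, from 3.37 to 5.94 and from -3.92 to -0.86. Variation between animals, sorts and cultures is unknown, so a fold as small as those after 6-OHDA has no error beside it. Sorted cells and colonies differ in medium, matrix, time and the cells present, which cannot be told apart. Protein amounts, phosphorylation of RB and assembly of cyclin D complexes cannot be read from these libraries.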
